A study of Homo sapiens with 21 samples.

Results

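The 10 genes described here encode enzymes that modify collagen after translation: the prolyl 4-hydroxylase subunits P4HA1, P4HA2 and P4HB, the lysyl hydroxylases PLOD1, PLOD2 and PLOD3, and the lysyl oxidases LOX, LOXL1, LOXL2 and LOXL4. They were taken by gene symbol from the 20970 genes of the 4 tables of RNA-seq values, and the set was drawn up with earlier results of these data known. All 10 were present in both knockdown tables, whereas 9 were present in the overexpression and mutant tables, which held no entry for LOXL1.

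RNA-seq was performed in 21 libraries from the human cancer cell lines FADU, of head and neck origin, and BFTC909, from the urothelium of the upper urinary tract, to ask which genes follow oxygen, the methyltransferase METTL4 and the long noncoding RNA RP11-390F4.3. In each line, cells with a scrambled siRNA (Scr-si) were kept for 18 h in 18% O2 (normoxia) or 1% O2 (hypoxia), and cells with METTL4 siRNA (METTL4-si) were kept in 1% O2, with 2 libraries a group. FADU cells with a control vector, with METTL4 overexpression (METTL4-OE) or with RP11-390F4.3 overexpression (RP11-390F4.3-OE), all in normoxia, gave 2 libraries each. In hypoxia, 1 library of FADU CRISPR control cells and 1 from each of 2 METTL4-DPPW-mut clones, altered at the enzymatic site of METTL4, completed the set. Each mutant library is 1 clone, and the labels do not say whether the libraries of the other groups came from separate cultures, so that p-values measure only the spread between these libraries.

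Values are TMM-normalized CPM, read counts scaled by library size, normalized separately in each table, and the libraries held 17781791 to 25410656 reads on genes. CA9, a standard hypoxia-induced gene, rose from 2.44 to 34.4 in FADU and from 0.766 to 55.1 in BFTC909. With METTL4-si CA9 was 2.05 in FADU and 5.69 in BFTC909, called lower than hypoxic Scr-si in both lines. In normoxic FADU it was 0.825 with control vector, 9.27 with METTL4-OE and 13.4 with RP11-390F4.3-OE, both called higher. In the mutant libraries it was 29.8 in the CRISPR control and 10.4 and 15.2 in the clones. METTL4 itself averaged 26.0 in hypoxic Scr-si and 25.7 in METTL4-si libraries of FADU, and 17.3 and 13.3 in BFTC909, neither difference being called, and these are therefore named the libraries labelled METTL4-si. METTL4 was 148 in METTL4-OE and 34.1 with control vector, while it was 12.5 in the CRISPR control and 15.9 and 10.6 in the clones, whose mutation changes the enzymatic site and which RNA levels do not check. All 8 squamous markers were present in FADU libraries (summed CPM 1898 to 4051), but BFTC909 had 3 of 8 urothelial markers in its table (sums 11.7 to 149) and 7 of 9 fibroblast markers. The FADU knockdown libraries had 4 of the 8 urothelial markers, with sums of 10.2 to 230, the highest in the first METTL4-si library. The fibroblast sums were 1269 and 1371 in BFTC909 normoxia, 4745 and 4955 in hypoxia and 2702 and 2887 with METTL4-si, and the squamous sums in FADU were 3713 and 4051 in hypoxic controls and 2348 and 2610 with METTL4-si. Their part in the results was not tested. A list of luminal breast epithelial markers, 7 of 9 present, summed to 141 and 719 in the first FADU normoxia and METTL4-si libraries against 6.70 to 12.3 in the other 4, and the second BFTC909 library labelled METTL4-si had a urothelial sum of 149 against 23.2 in the first. In BFTC909 3 of these luminal markers were present, with sums of 325 and 335 in normoxia, 999 and 1020 in hypoxia and 314 and 533 with METTL4-si. The second RP11-390F4.3-OE library had a luminal sum of 56.8 against 6.56 to 9.78 in the other 5 overexpression libraries. Bulk RNA cannot tell fewer cells of a kind from less RNA per cell.

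Collagen chains are hydroxylated on proline and lysine in the endoplasmic reticulum before the triple helix forms. Prolyl 4-hydroxylase joins a catalytic alpha subunit (P4HA1 or P4HA2) with the beta subunit P4HB, also known as protein disulfide isomerase, and its product stabilizes the helix. Lysyl hydroxylases act on the helix (PLOD1, PLOD3) or on the telopeptides (PLOD2), and the lysyl oxidases, copper enzymes secreted from the cell, oxidize lysine and hydroxylysine so that fibrils crosslink. The hydroxylases need molecular oxygen, and several of these genes are known targets of hypoxia-inducible factors, which bind the core sequences ACGTG and GCGTG.

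Promoters of 4 members are shown for comparison, 3 of genes that rose in hypoxia in both lines and that of PLOD3, which was not called in hypoxia in either line. Each run is the 250 bases before the start site, 5′ to 3′ on the strand of the gene, from RefSeq with GRCh38.p14 coordinates, and capitals mark ACGTG or GCGTG on either strand (CACGT and CACGC are their reverse complements, and overlapping matches count separately).
PLOD2 (chr3:146161185-146161434, minus strand): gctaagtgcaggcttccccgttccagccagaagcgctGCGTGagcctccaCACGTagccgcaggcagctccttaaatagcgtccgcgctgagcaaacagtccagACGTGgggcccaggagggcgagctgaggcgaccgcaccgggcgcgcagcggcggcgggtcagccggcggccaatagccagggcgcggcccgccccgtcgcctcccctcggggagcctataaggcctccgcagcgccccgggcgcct
PLOD3 (chr7:101217582-101217831, minus strand): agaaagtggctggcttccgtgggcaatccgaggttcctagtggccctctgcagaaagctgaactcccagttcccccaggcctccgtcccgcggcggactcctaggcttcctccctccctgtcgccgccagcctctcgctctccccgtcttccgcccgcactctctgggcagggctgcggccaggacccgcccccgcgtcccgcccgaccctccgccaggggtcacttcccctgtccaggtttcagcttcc
P4HA1 (chr10:73096867-73097116, minus strand): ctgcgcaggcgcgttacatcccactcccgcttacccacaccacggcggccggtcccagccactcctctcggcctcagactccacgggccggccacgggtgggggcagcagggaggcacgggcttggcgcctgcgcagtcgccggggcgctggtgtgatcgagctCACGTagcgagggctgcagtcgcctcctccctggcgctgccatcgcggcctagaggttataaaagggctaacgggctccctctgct
LOX, the start farthest upstream (chr5:122078260-122078509, minus strand): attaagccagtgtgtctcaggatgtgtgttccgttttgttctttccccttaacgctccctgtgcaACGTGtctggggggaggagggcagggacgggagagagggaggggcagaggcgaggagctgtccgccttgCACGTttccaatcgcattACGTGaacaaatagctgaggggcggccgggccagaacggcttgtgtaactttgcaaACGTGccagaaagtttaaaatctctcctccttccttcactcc
PLOD2 had 3 matches, 2 of ACGTG and 1 of GCGTG, LOX had 4 of ACGTG, P4HA1 had 1 of ACGTG and PLOD3 had 0. Of the 9 members with an entry, 5 had a match, as did 43.2% of 35116 promoters of the same length (18.5% with ACGTG, 32.2% with GCGTG). The others with a match were P4HB and PLOD1, and P4HA2, which rose with hypoxia in both lines, had 0. LOXL1 and LOXL4, which rose with hypoxia in BFTC909, also had 0. LOXL2, which rose in both lines, had no entry. A match describes letters in this window only.

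The prolyl 4-hydroxylase alpha subunits both rose in hypoxia in both lines. P4HA1 (GRCh37, chr10:74766975-74856732) was 67.7 and 72.1 in FADU normoxia, 285 and 301 in hypoxia, and 86.6 and 97.2 in the libraries labelled METTL4-si. The 3 groups did not overlap, and the last lay just above normoxia. Fold changes of single genes, here and below, are of value + 1, which makes them smaller for genes of low value. P4HA1 rose 4.15-fold (log2 fold change 2.05 ± 0.08 SE, limma adjusted p = 5.08e-05) and its level with METTL4-si was 3.17-fold lower than in hypoxic controls (-1.66 ± 0.08, adjusted p = 0.000105). In BFTC909 P4HA1 was 147 and 152, then 470 and 462, then 228 and 192, a 3.11-fold rise (1.64 ± 0.09, limma adjusted p = 2.72e-05) and a 2.22-fold lower level (-1.15 ± 0.09, adjusted p = 0.000158). Of the rise between group means, 90.2% was gone with METTL4-si in FADU and 80.8% in BFTC909, comparisons that share the hypoxic control libraries.

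P4HA2 (chr5:131525840-131631008), the second alpha subunit, had the lower value per kilobase in every group. In FADU it was 22.7 and 23.1 in normoxia, 78.1 and 85.5 in hypoxia, and 37.8 and 37.6 in the libraries labelled METTL4-si. It rose 3.46-fold (1.79 ± 0.08, limma adjusted p = 6.67e-05) and was then 2.14-fold lower (-1.10 ± 0.08, adjusted p = 0.000292), with 74.9% of the rise gone. In BFTC909 the values were 73.1 and 83.9, 260 and 274, and 159 and 146, a 3.38-fold rise (1.76 ± 0.09, limma adjusted p = 1.86e-05) and a 1.75-fold lower level (-0.80 ± 0.09, adjusted p = 0.000632), with 60.8% gone. Its annotated span overlaps PDLIM4 and SLC22A4, and whether counting used strand is not given in the sources used here.

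P4HB (chr17:79801035-79818732), the shared beta subunit and a chaperone in its own right, was 1127 and 1111 in FADU normoxia and 1305 and 1367 in hypoxia, 1.19-fold higher with limma adjusted p = 0.0442, which is under the 1.3-fold limit for a call. In BFTC909 it was 470 and 481 in normoxia and 757 and 793 in hypoxia, a called 1.63-fold rise (0.70 ± 0.06, limma adjusted p = 0.00022), and 614 and 645 with METTL4-si, 1.23-fold lower and not called. In hypoxia the fold changes of the alpha subunits were thus 3.11 to 4.15, beside 1.19 and 1.63 for P4HB.

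The ratio of P4HA1 to P4HA2 moved little in hypoxia beside the genes themselves. Its log2 value in FADU went from 1.61 in normoxia to 1.84 in hypoxia and 1.28 with METTL4-si, so that P4HA1 lost 1.47-fold more than P4HA2 in the last step. In BFTC909 it went from 0.93 to 0.80 and 0.46. With 2 libraries against 2, the exact two-sided permutation test cannot give p below 0.333, and none of the 46 ratio comparisons made across families can pass 0.05 (smallest adjusted p 0.374). P4HA1 stayed above P4HA2 per kilobase in all 11 groups under each of 3 gene lengths tried.

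**Figure D1:**
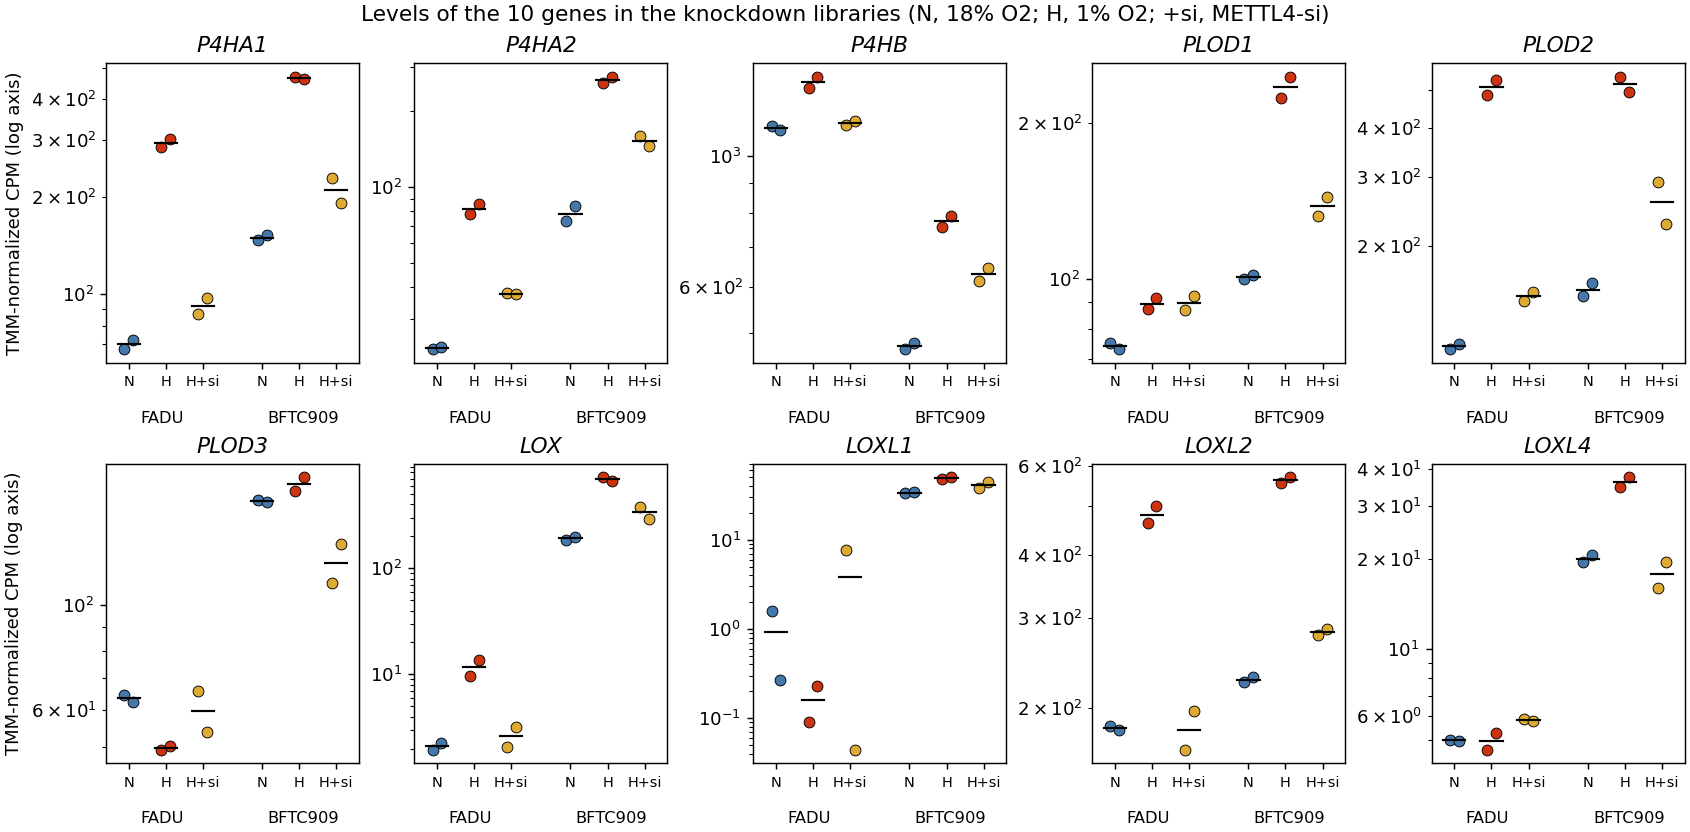
TMM-normalized CPM (log axis, scaled per gene) of the 10 genes in each knockdown library, as points with the group mean as a bar, in normoxia (N), hypoxia (H) and hypoxia with METTL4-si (H+si). PLOD2 goes from 110 and 113 to 485 and 529 in FADU, and LOXL1 of FADU is high in the first library labelled METTL4-si alone.

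Among the lysyl hydroxylases, PLOD2 had the largest fold change in hypoxia in both lines, and PLOD3 was called in neither. PLOD2 (chr3:145752926-145881512), the telopeptide lysyl hydroxylase, was 110 and 113 in FADU normoxia, 485 and 529 in hypoxia, and 145 and 153 in the libraries labelled METTL4-si. This 4.52-fold rise in value + 1 (2.18 ± 0.07, limma adjusted p = 2.7e-05) was the largest of the 10 genes in FADU on that scale. By the ratio of plain means LOX rose more (2.09 to 11.6, beside 111 to 507 for PLOD2). With METTL4-si 90.4% of the PLOD2 rise was gone (-1.76 ± 0.07, limma adjusted p = 5.13e-05). In BFTC909 PLOD2 was 149 and 161, 540 and 495, and 291 and 228. There it rose 3.31-fold (1.73 ± 0.12, limma adjusted p = 5.83e-05) and with METTL4-si fell by 0.999 on the log2 scale (SE 0.12, adjusted p = 0.000934).

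PLOD1 (chr1:11994262-12035595), a helical lysyl hydroxylase, was called in BFTC909 and not in FADU. In FADU it was 75.3 and 73.2 in normoxia, 87.3 and 91.8 in hypoxia and 87.0 and 92.6 with METTL4-si, a 1.203-fold rise in hypoxia under the limit for a call, with overlapping hypoxic groups. In BFTC909 it was 99.9 and 102, 224 and 245, and 132 and 144, rising 2.31-fold (1.21 ± 0.07, limma adjusted p = 4.13e-05) and then 1.69-fold lower (-0.76 ± 0.07, adjusted p = 0.00045). The difference between the lines was not tested, since the tables were normalized apart.

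PLOD3 (chr7:100849258-100861701), which also carries glycosyltransferase activity, was 64.6 and 62.4 in FADU normoxia and 49.4 and 50.2 in hypoxia, 1.27-fold lower and just short of a call (-0.34 ± 0.10, limma adjusted p = 0.0491). With METTL4-si it was 65.7 and 53.8. In BFTC909 it was 167 and 166, then 175 and 187, a 1.09-fold difference, and 111 and 135 with METTL4-si, called 1.47-fold lower (-0.56 ± 0.10, limma adjusted p = 0.00489). That call was lost without the second hypoxic Scr-si library (adjusted p = 0.0607).

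Within the family, the log2 ratio of PLOD2 to PLOD1 went from 0.58 to 2.50 in FADU hypoxia and to 0.73 with METTL4-si, and that of PLOD2 to PLOD3 from 0.81 to 3.35 and 1.33. In BFTC909 the same ratios went from 0.62 to 1.14 and 0.90, and from -0.10 to 1.51 and 1.07. Counted per kilobase of MANE Select transcript, PLOD2 made up 38.5% ± 1.0 (SD, n = 2) of the 3 lysyl hydroxylases in FADU normoxia, 73.9% ± 0.67 in hypoxia and 43.7% ± 1.7 with METTL4-si. Per kilobase of the union of exons, which for PLOD2 is 14.5 kb against 3.75 kb, the shares were 23.4%, 57.7% and 27.3%. The order of levels depended on the length, for PLOD2 was the highest of the 3 in FADU normoxia by the first and the lowest by the second, but in FADU hypoxia it was the highest by both.

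Of the lysyl oxidases, LOX and LOXL2 rose in hypoxia in both lines. LOX (chr5:121398890-121414108), the founding member, was 1.95 and 2.23 in FADU normoxia (47 and 50 reads), 9.62 and 13.6 in hypoxia, and 2.07 and 3.20 with METTL4-si. In BFTC909 it was 187 and 199, 721 and 664, and 379 and 294, all far above the FADU values, although the tables were normalized apart. It rose 4.03-fold in FADU (2.01 ± 0.22, limma adjusted p = 0.00184) and 3.57-fold in BFTC909 (1.84 ± 0.12, adjusted p = 4.66e-05). With METTL4-si it was 3.47-fold and 2.07-fold lower (limma adjusted p = 0.00161 and 0.000781), and in FADU it then overlapped normoxia.

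LOXL2 (chr8:23154410-23282841), which acts on basement membrane collagen, had the highest value per kilobase of the lysyl oxidases in FADU. It was 184 and 180 in FADU normoxia, 462 and 499 in hypoxia and 165 and 197 with METTL4-si, so that the last group overlapped normoxia. The rise was 2.63-fold (1.39 ± 0.09, limma adjusted p = 0.000407) and the lower level 2.66-fold (-1.41 ± 0.09, adjusted p = 0.000262). In BFTC909 it was 224 and 230, 554 and 569, and 279 and 285, a 2.47-fold rise (1.303 ± 0.06, limma adjusted p = 1.38e-05) and a 1.99-fold lower level (-0.99 ± 0.06, adjusted p = 6.32e-05), with 83.5% of the rise gone. Its span overlaps ENTPD4 and LOXL2-AS1.

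LOXL4 (chr10:100007447-100027951), the other member with scavenger receptor domains measured here, was 4.99 and 4.96, 4.63 and 5.25, and 5.86 and 5.78 in the same FADU groups, and was not called there. In BFTC909 it was 19.5 and 20.6, 34.8 and 37.5, and 16.04 and 19.6, a 1.76-fold rise (0.82 ± 0.11, limma adjusted p = 0.00109) and a 1.98-fold lower level (-0.99 ± 0.11, adjusted p = 0.000807).

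LOXL1 (chr15:74218330-74244478), which is needed for elastic fibres, was near absent from FADU: 6 and 1 reads were counted in the second normoxia and METTL4-si libraries and 2 and 5 in hypoxia. The first libraries of these groups had 38 and 192 reads (CPM 1.58 and 7.66), and these are the libraries with luminal breast marker sums of 141 and 719 and fibroblast marker sums of 25.6 and 116, against 4.403 to 5.87 in the other 4. The part of these markers in the LOXL1 values was not tested. In BFTC909 LOXL1 was 33.6 and 34.0, 47.4 and 50.02, and 37.8 and 44.7, a 1.43-fold rise (0.51 ± 0.09, limma adjusted p = 0.00388) and an uncalled 1.18-fold difference. It overlaps LOXL1-AS1.

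The balance of LOX and LOXL2 differed between the lines by far more than within them. The log2 ratio of LOX to LOXL2 was -6.45 in FADU normoxia, -5.39 in hypoxia and -6.13 with METTL4-si, and -0.24, 0.30 and 0.24 in BFTC909. Per kilobase of exon union, LOXL2 made up 93.8% ± 0.57 and 95.8% ± 0.54 (SD, n = 2) of the lysyl oxidases in FADU normoxia and hypoxia, against 43.5% ± 0.50 and 39.0% ± 1.5 in BFTC909, where LOX made up 39.5% and 51.3%. LOXL2 was the highest lysyl oxidase in all FADU groups under each length, but in hypoxic BFTC909 LOX led by exon union and LOXL2 by the other lengths.

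Counted over all genes tested, 5 of 10 members rose and 0 fell in FADU hypoxia, where 9.73% of all genes rose and 9.65% fell at 1.3-fold or more with limma adjusted p under 0.05. In BFTC909, 9 of 10 rose and 0 fell, beside 17.9% and 18.3% of all genes. With METTL4-si, 5 of 10 fell and 0 rose in FADU (15.3% and 12.5% of all genes), and 8 of 10 fell and 0 rose in BFTC909 (11.7% and 13.2%). The members' median log2 fold changes were 0.83, 1.26, -0.66 and -0.90 in this order, and those of all genes were -0.03, -0.02, 0.02 and 0.01. By edgeR, DESeq2 and limma with unadjusted p under 0.05 the counts of members were the same, the counts of 0 included. Without the 3 knockdown libraries that carried markers of other cell types, FADU normoxia and METTL4-si in each line kept 1 library each. No count is given for that fit.

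**Figure D2:**
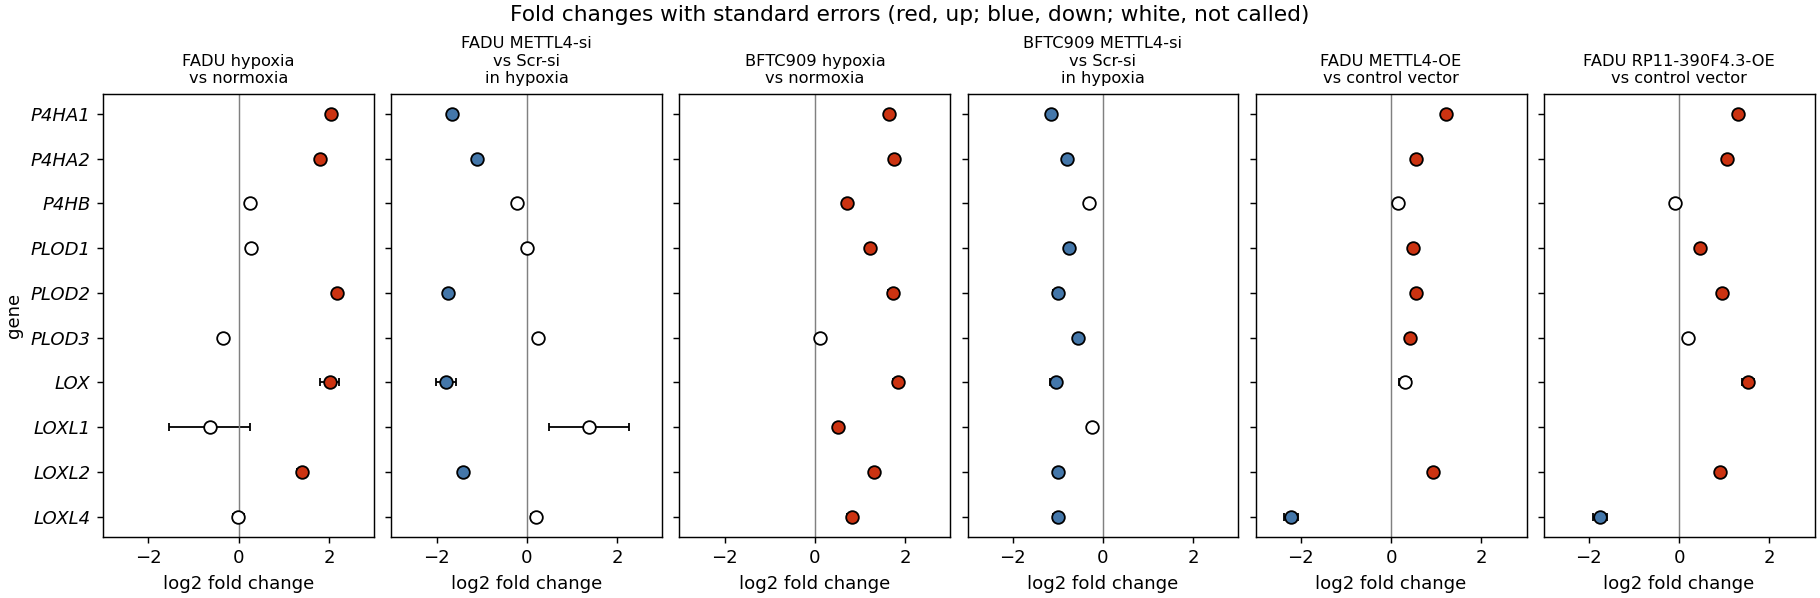
Log2 fold change of (value + 1) (horizontal axis) of each gene in the 6 tested comparisons, with limma standard errors as bars. Red points rose, blue points fell and white points were not called. P4HA1, P4HA2, PLOD2 and LOXL2 are called in all 6, while LOXL4 falls in both overexpression comparisons, by 2.22 and 1.75 on this scale. Its values there are low (means of 7.49, then 0.842 and 1.53), so the added 1 makes both falls smaller.

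In normoxic FADU cells, METTL4-OE raised 6 of the 9 members tested and lowered 1, against 8% and 10.5% of all genes. P4HA1 was 69.5 and 70.4 with control vector and 164 and 163 with METTL4-OE, the largest rise at 2.32-fold (1.21 ± 0.05, limma adjusted p = 3.1e-10). LOXL2 went from 146 and 141 to 274 and 275, a 1.91-fold rise (0.93 ± 0.04, limma adjusted p = 1.81e-09). PLOD2 (117 and 105 to 166 and 162), P4HA2 (20.3 and 21.7 to 31.2 and 31.4), PLOD1 (59.4 and 58.4 to 86.6 and 80.5) and PLOD3 (44.1 and 44.5 to 61.0 and 58.0) rose 1.34-fold to 1.47-fold. LOX, at 2.58 and 2.09 and then 3.48 and 2.81, and P4HB, 1.12-fold higher, were not called. LOXL4 was the member that fell, from 7.44 and 7.54 to 0.596 and 1.09 (12 and 24 reads).

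In the libraries assigned to RP11-390F4.3-OE by elimination, 6 of 9 members also rose and 1 fell, against 16.5% and 12.5% of all genes. They share their control libraries with METTL4-OE, and their level of RP11-390F4.3 itself is not given here. P4HA1 reached 181 and 170 (2.48-fold), P4HA2 46.7 and 43.4 (2.10-fold), PLOD2 226 and 204 (1.93-fold) and LOXL2 276 and 265 (1.88-fold). PLOD1 rose 1.39-fold to 81.8 and 82.4. LOX reached 8.13 and 9.04, the largest rise at 2.88-fold (1.53 ± 0.14, limma adjusted p = 8.45e-07). PLOD3 at 49.4 and 52.3 and P4HB at 898 and 894 were not called, and LOXL4 fell to 1.61 and 1.46 (-1.75 ± 0.15, limma adjusted p = 6.61e-07). The second RP11-390F4.3-OE library is the one with the luminal marker sum of 56.8, and without it the group is 1 library. The members' median log2 fold changes were 0.50 with METTL4-OE and 0.91 with RP11-390F4.3-OE, and 0.01 over all genes in both.

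The log2 ratio of P4HA1 to P4HA2 was 1.74 with control vector, 2.38 with METTL4-OE and 1.96 with RP11-390F4.3-OE. That of PLOD2 to PLOD1 was 0.91, 0.97 and 1.39, the METTL4-OE libraries overlapping the control. That of LOXL2 to LOXL4 was 4.26, 8.41 and 7.46.

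**Figure D3:**
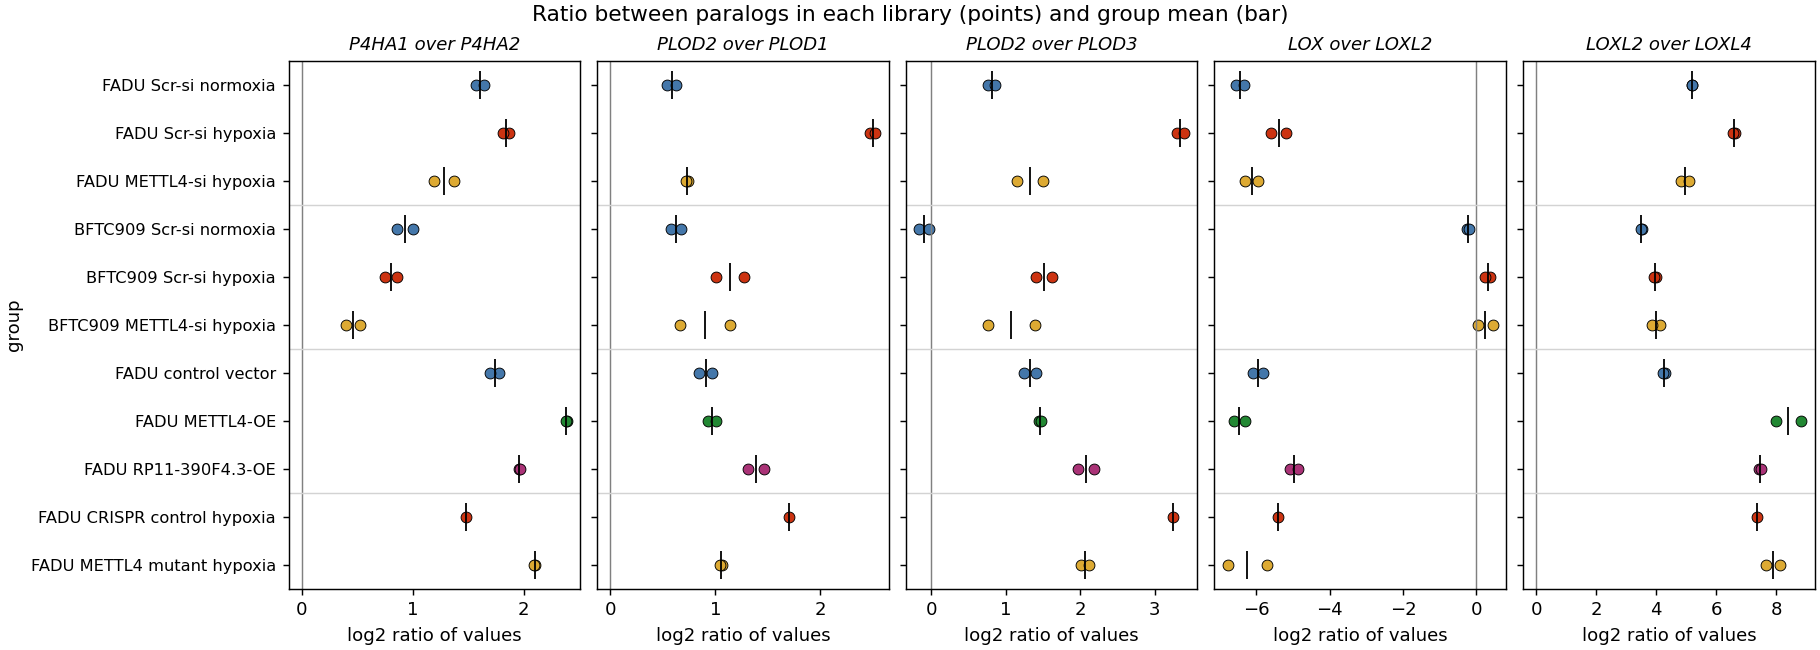
Log2 ratio of the values of 2 paralogs (horizontal axis, uncorrected for gene length) in each library of the 11 groups, as points with the group mean as a bar; the CRISPR control is 1 library. PLOD2 over PLOD1 is 2.50 in FADU hypoxia and 0.58 in normoxia, and LOX over LOXL2 lies near 0 in BFTC909 alone.

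In the mutant table no test was run, since the control is 1 library, and a gene is counted where both clones lay 1.3-fold or more from it. On that count 5 of 9 members were lower and 0 higher in the METTL4 mutant clones, against 11.8% and 8.94% of all genes. PLOD2 was 249 in the CRISPR control, 126 in clone 1 and 111 in clone 2, P4HA2 60.3 and then 32.5 and 34.5, and LOXL2 438 and then 241 and 294. LOX was 10.3 and then 4.59 and 2.68, and LOXL4 2.64 and then 1.19 and 1.05, a low value that was lost at a pseudocount of 5, leaving 4 members. P4HA1, at 168 and then 139 and 148, was not counted, so that the log2 difference of the clones averaged -0.83 for P4HA2 and -0.23 for P4HA1. P4HB (707, then 509 and 553) and PLOD1 (76.3, then 60.5 and 53.9) passed the limit in 1 clone each, and PLOD3 was 26.3, then 31.4 and 25.7. The members' median was -0.72 and that of all genes 0.00.

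**Figure D4:**
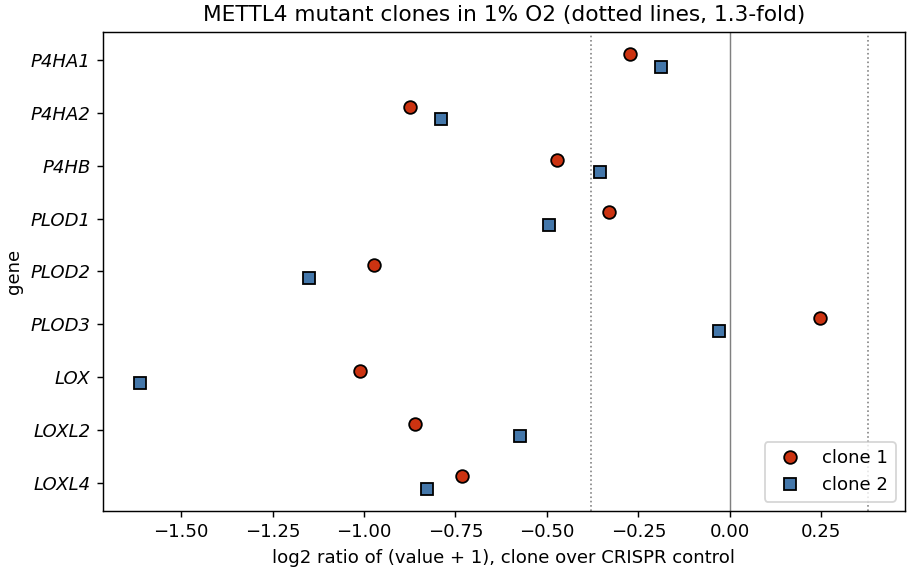
Log2 ratio of (value + 1) of each mutant clone over the single CRISPR control library (horizontal axis) for 9 genes, with dotted lines at 1.3-fold. P4HA2, PLOD2, LOX, LOXL2 and LOXL4 lie past the lower line in both clones, and P4HA1 lies inside it in both.

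A list of 30 other genes of collagen folding and processing was also examined. In FADU hypoxia, beside 9.73% of all genes rising and 9.65% falling, 1 of 22 tested rose, the prolyl 3-hydroxylase P3H2 (29.3 to 47.4), and 6 fell, among them ADAMTS3, a procollagen N-proteinase (10.3 to 5.62), PCOLCE2, a procollagen C-proteinase enhancer (13.98 to 9.87), P3H4 (46.3 to 34.2) and the chaperone HSPA5 (739 to 558). In BFTC909 hypoxia 17 of 28 rose and 2 fell, beside 17.9% and 18.3% of all genes. CREB3L1, a transcription factor for secretory and collagen genes, rose the most there, from 54.3 to 209 (1.93 ± 0.06, limma adjusted p = 8.07e-06), while ADAMTS14, a further N-proteinase, fell from 3.89 to 2.33. PCOLCE (3.55 to 11.6), PCOLCE2 (9.49 to 16.1), P3H2 (110 to 170) and P3H4 (3.31 to 5.97) rose, and ADAMTS3 fell (13.6 to 9.79), a call that DESeq2 did not make.

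With METTL4-si, 6 of 22 of these genes rose and 1 fell in FADU (12.5% and 15.3% of all genes), and 3 of 28 rose and 13 fell in BFTC909 (13.2% and 11.7%). P3H2 fell in both lines, to 24.1 in FADU and 114 in BFTC909. In FADU PCOLCE2 (22.2), ADAMTS3 (11.8) and P3H4 (51.9) rose. In BFTC909 CREB3L1 fell to 81.3 and HSPA5 to 383, whereas ADAMTS14 reached 23.6, the largest rise (2.88 ± 0.14, limma adjusted p = 2.65e-05), and PCOLCE 27.4. With METTL4-OE 0 of 22 rose by limma, also with unadjusted p, and 0 by edgeR and DESeq2, and 2 fell, with ADAMTS3 at 4.91 against 9.82 (8% and 10.5% of all genes), and with RP11-390F4.3-OE 1 rose (PCOLCE, 3.42 to 4.81) and 3 fell, among them ADAMTS3 (6.10) and HSPA5 (642 to 439), beside 16.5% and 12.5% of all genes. In the mutant clones 0 of 24 were higher and 7 lower in both (8.94% and 11.8% of all genes). The medians of the list were -0.18, 0.26, 0.58, -0.25, -0.07 and -0.11 on the log2 scale for FADU hypoxia, FADU METTL4-si, BFTC909 hypoxia, BFTC909 METTL4-si, METTL4-OE and RP11-390F4.3-OE.

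Profiles were also compared over the 18 libraries of the 3 tables with replicates, as log2(value + 1) centred within each table, among 9674 genes with a mean value of at least 5 in each. For P4HA1 the genes most alike were LOXL2 (Pearson r = 0.99), KDM3A (0.98) and PDK1 (0.98). For PLOD2 they were ERO1A (0.98), SNX33 (0.97) and P4HA1 (0.97), and for LOX SNX33 (0.98), ERO1A (0.97) and KLF12 (0.96). Against P4HA1, PLOD3 had r = 0.03 and LOXL4 r = -0.23. These values describe libraries that share tables and control groups, and they carry no test.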

How the data were processed

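RNA-seq libraries were made with a stranded Kapa kit with ribosomal RNA removal. Per the submitters' processing notes, Trim Galore, HISAT2, HTSeq and edgeR were used with build hg19; versions and counting settings are not given in the sources used here. The authors deposited a normalized signal, TMM-normalized CPM, for 19505, 17232, 18316 and 15719 genes in 4 tables. The authors' own comparison tables (fold changes and p-values) were not used. Values up to 1000 reads came out as whole reads within 0.1 in 100% of cases, and the reads of the tables with replicates served the count tests. The mutant table held genes with at least 10 reads in each library, and 40.9% to 43.0% of its counts lay in rows naming no gene, which were left out. In the overexpression table the RP11-390F4.3-OE columns carry another name and were assigned by elimination. Symbols were found for 18887, 16721, 17763 and 15308 identifiers. Gene positions and lengths come from GENCODE v44 lifted to GRCh37.

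The members and lists were chosen with earlier results of these data known. The main test was limma 3.58.1 (trend) on log2(value + 1) for genes reaching 1 CPM in 2 or more libraries (16324, 14869 and 15644 genes), the 3 groups of a table sharing the spread. A call needed 1.3-fold and a Benjamini-Hochberg adjusted p under 0.05 over all genes tested. Alternatives were other pseudocounts, filters, normalizations, thresholds, edgeR 4.0.16 and DESeq2 1.42.0 on whole reads, a replicate block and each library left out. Fits were tested on simulated data. All 10 members are named; of the collagen list, genes called in at least 3 of 6 comparisons or with the largest fold per direction. Like profiles were sought for the member of each family with the highest mean rise in hypoxia.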

Additional observations from a re-analysis of the deposited data

Results flagged for a closer look

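Some genes moved one way in every FADU library and the other way in every BFTC909 library of the same contrast, and the difference between the lines was not tested. The genes named are from the members and the collagen list, and the share of all genes moving this way is not given here. In hypoxia the log2 fold changes in FADU and BFTC909 were -0.34 and 0.12 for PLOD3, -0.64 and 0.51 for LOXL1 (at 2 to 38 reads in the FADU libraries compared), -0.43 and 0.70 for P3H4, -0.47 and 0.70 for PCOLCE2, and -0.40 and 0.0902 for HSPA5. With METTL4-si they were 0.25 and -0.56 for PLOD3, 0.20 and -0.99 for LOXL4, and 0.25 and -0.93 for HSPA5. Of these, PLOD3 and LOXL1 in FADU, PLOD3 in BFTC909 hypoxia, LOXL4 in FADU and HSPA5 in BFTC909 hypoxia and FADU METTL4-si were not called. LOXL1 had 38 and 6 reads in FADU normoxia and 2 and 5 in hypoxia. The 38 reads are from the library with a luminal marker sum of 141.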

How the results depend on the processing

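Of 1070 recomputed fold changes of single members, 1049 kept their side of the threshold, 18 lost a call, 3 gained one and 0 reversed among called values. Direction was not compared for values called in neither setting. Median-centring added P4HB to the 8 calls of BFTC909 METTL4-si. Leaving out the second FADU library labelled METTL4-si gave log2 fold changes of 0.39 for PLOD3 and 2.90 for LOXL1. These values rest on the first library alone, which had 192 LOXL1 reads and a luminal marker sum of 719. A 2-fold threshold left 2 of 8 calls in BFTC909 METTL4-si, 2 of 7 with METTL4-OE, 4 of 7 with RP11-390F4.3-OE and 1 of 5 in the mutant clones. In BFTC909 hypoxia P4HB, LOXL1 and LOXL4 lost their calls at that threshold. With each library left out in turn, counts ranged from 5 to 7 in FADU METTL4-si, 7 to 8 in BFTC909 METTL4-si, and the mutant count was 6 with either clone alone and 4 with a pseudocount of 5. Of the collagen list, edgeR called 3 and DESeq2 4 of the 6 genes lower in FADU hypoxia (PCOLCE2 by neither and HSPA5 not by edgeR), and DESeq2 called 0 of the 1 higher with RP11-390F4.3-OE and 1 of the 2 lower in BFTC909 hypoxia (not ADAMTS3). The replicate block gave the same counts (5, 5, 9, 8, 7 and 7) and changed no call; the numbers are not shown to pair the libraries, since correlations of replicate differences were 0.648 for FADU normoxia with METTL4-si and -0.07 to 0.15 otherwise.

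The rise of the PLOD2 share in FADU hypoxia was 34.3 percentage points by exon union, 35.8 by the longest transcript and 35.4 by the MANE Select transcript, a length added after seeing the data, and in BFTC909 it was 13.8 and by the latter 18.3. The change of the LOXL2 share was 2.04 and 1.37 in FADU hypoxia by exon union and longest transcript, 7.73 and 5.04 with METTL4-OE and 5.28 and 3.35 with RP11-390F4.3-OE, the MANE Select values of both overexpression groups being the same as by the longest transcript. Depth limits LOXL1 in FADU and LOX in FADU normoxia, at 47 and 50 reads. It also limits LOX in FADU with METTL4-si (52 and 72 reads), control vector (54 and 45) and METTL4-OE (70 and 62). LOXL4 had 12 and 24 reads with METTL4-OE, 40 and 34 with RP11-390F4.3-OE and 40 and 33 in the mutant clones, so its falls there rest on few reads.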
